A study of Rattus norvegicus with 70 samples.

Results

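The genes described here are the collagens and a set of genes that assemble, cross-link or degrade the extracellular matrix, read in organs of rats exposed to bisphenols. All rows of the deposited table with a collagen symbol (Col, a number, a, a number) were taken, together with Dcn, Lum, Bgn, Fn1, Sparc, Postn, Tnc, Timp1, Timp2, Timp3, Mmp2, Lox, Adamts5, Sfrp4 and Cthrc1. The rule found 42 of 17048 rows, of which 27 were collagens. Of the 42, 17 passed the low-count filter in every organ and sex, 40 passed in at least 1, and Col2a1 and Col27a1 passed in none.

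RNA came from Sprague-Dawley rats, an outbred strain, killed on postnatal day (PND) 63. In the Mix group, dams received by mouth a bisphenol mixture of 160 mg/kg/day of bisphenol A (BPA), 160 mg/kg/day of bisphenol F and 180 mg/kg/day of bisphenol S, 500 mg/kg/day in all. Dams of the BPA group received 500 mg/kg/day of BPA alone, and vehicle controls received no bisphenol. Dosing of dams began on gestational day 6 and ended on lactation day 6, and pups were then given the substance of their dam from PND 7 to PND 63, at a total of 250 mg/kg/day. Liver, kidney and thyroid were taken from both sexes, testis from males and ovary from females, with 3 rats per group. The exception was female kidney, with 3 Mix, 2 BPA and 2 vehicle libraries. By the labels the organs of a sex came from the same rats, so organs are not independent, and this pairing was not used. In female kidney, vehicle and BPA replicates 1 and 2 are the rats numbered 2 and 3 in the other female organs. The labels do not tie pups to dams, so rats of a group may be littermates, and p-values measure the spread between these rats only. Because the Mix dose holds less BPA than the BPA dose, Mix against BPA differs in both the amount of BPA and the presence of the other bisphenols.

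Fibrillar collagens such as types I and III form the tension-bearing fibres of connective tissue, and type IV collagen forms the sheet-like network of basement membranes. Small proteoglycans such as decorin and lumican bind the fibrils and set their width, while metalloproteinases such as Mmp2 and Adamts5 cut matrix proteins and the Timp proteins inhibit them. In kidney, liver and thyroid most fibrillar collagen is made by interstitial fibroblasts and related stromal cells. In the ovary, matrix is laid down and broken down with each cycle of follicle growth, ovulation and corpus luteum formation.

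Total counts ran from 4803807 to 10929957 per library over 70 libraries. Ribosomal RNA rows held very different shares of them, from 1.42 to 20.2% in Mix, 16.4 to 37.2% in BPA and 1.71 to 3.50% in vehicle male kidneys. They held from 11.7 to 23.7% in Mix, 1.93 to 7.41% in BPA and 0.660 to 3.26% in vehicle female thyroids. In ovary the BPA libraries (12.4 to 19.1%) lay below the vehicle libraries (20.7 to 29.4%), with Mix between 18.7 and 23.8%, and elsewhere the ranges of the 3 treatments overlapped. Marker genes of each organ were high where its label placed them, with hepatocyte genes summing to at least 61949 CPM (counts scaled to a common library size) in livers and germ cell genes to at least 45023 CPM in testes. Male thyroid BPA replicate 1 stood apart, with germ cell genes at 16617 CPM, against 8.81 to 21.5 CPM in Mix and 29.0 to 707 CPM in vehicle male thyroids. In female thyroid the spermatid transcript Tnp1 was at 160, 6.24 and 16.6 CPM in Mix, 7.98, 7.04 and 310 CPM in BPA and 2752, 1564 and 0.137 CPM in vehicle libraries. Thyroid libraries also carried parathyroid transcripts (12105 to 96165 CPM) and skeletal muscle transcripts that ranged from 9.56 to 8453 CPM between libraries. Of cartilage genes that could come from the adjoining larynx and trachea, Acan, Matn1, Matn3 and Hapln1 were at 0 in every male thyroid, Matn1 and Matn3 at 0 in every female thyroid, and Col2a1 at 0 in all vehicle thyroids. Others were found at low levels. Comp reached 8.69 CPM in male BPA replicate 1 and Ucma 6.44 CPM in female vehicle replicate 3. Chad reached 2.28 CPM in female BPA replicate 3 and Lect1 1.53 CPM in male vehicle replicate 3. Col2a1 had 5 counts in female Mix replicate 2 and 1 in male BPA replicate 1. Sox9, which follicular cells also express, made up nearly all of the summed level of the cartilage genes there.

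Matrix genes were most abundant in the ovary of vehicle rats, followed by male thyroid. Levels set across organs are CPM computed on the counts outside the ribosomal RNA rows. Summed over the 42 genes, they reached 10251 ± 264 in ovary, 7614 ± 885 in male thyroid, 4348 ± 301 in female thyroid, 4169 ± 260 in female kidney (n = 2), 2905 ± 376 in male kidney, 2293 ± 279 in male liver, 1761 ± 162 in female liver and 1323 ± 317 in testis (SD, n = 3 unless stated). Female thyroid overlapped female kidney, male kidney overlapped male liver, and testis overlapped female liver. The ovary had the highest mean of 17 of the 42 genes, female kidney of 9, male thyroid of 7, male liver of 4, testis of 3 and male kidney of 2. The 2 chains of type I collagen were about as high in ovary as in male thyroid. Col1a1 averaged 1184 ± 20.2 in ovary and 1131 ± 237 in male thyroid, followed by 397 ± 75.9 in female thyroid. It averaged 87.9 ± 93.0 in testis, 87.2 ± 62.2 in female kidney, 77.4 ± 31.0 in male kidney, 34.9 ± 15.3 in male liver and 20.2 ± 5.45 in female liver. The 2 kidneys and the testis did not differ beyond their spread. Col1a2 followed the same upper order, with 1281 ± 79.0 in ovary, 1194 ± 331 in male thyroid and 334 ± 52.9 in female thyroid. It averaged 205 ± 17.0 in female kidney, 127.7 ± 45.5 in male kidney, 84.9 ± 59.9 in testis, 71.5 ± 22.1 in male liver and 56.6 ± 10.3 in female liver, where neighbours in that order overlapped from male kidney on. Col3a1, the chain of type III collagen, averaged 854 ± 110 in male thyroid, 823 ± 142 in ovary and 351 ± 78.4 in female thyroid. Unlike type I collagen it was next highest in liver, with 194.5 ± 74.9 in males and 117 ± 28.2 in females, ahead of 108 ± 6.20 in female kidney, 85.1 ± 25.4 in male kidney and 51.5 ± 49.5 in testis, where the 3 rats ran from 20.1 to 109.

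**Figure D1:**
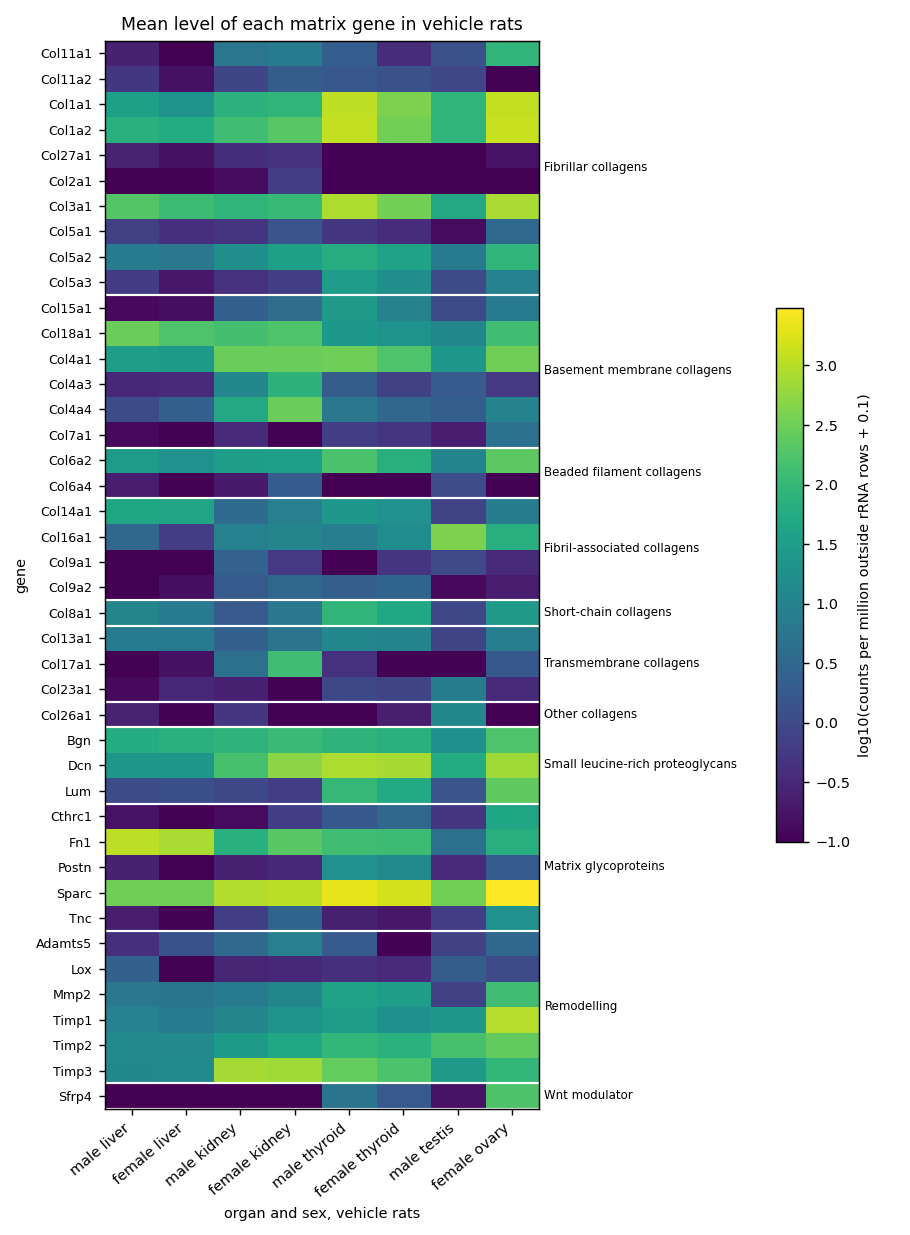
Mean level of each of the 42 matrix genes in vehicle rats, for 8 combinations of organ and sex (columns), coloured on a log10 scale of CPM outside ribosomal RNA rows plus 0.1; rows are grouped by role. Ovary and thyroid columns are brightest for the fibrillar collagens and proteoglycans, Fn1 is brightest in liver, Timp3, Col4a3 and Col4a4 in kidney, and Col16a1 in testis.

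Several members marked an organ. Fn1, the fibronectin gene, whose plasma form hepatocytes secrete, averaged 1093 ± 160 in male liver and 821 ± 40.4 in female liver, against 206 ± 1.23 in female kidney, 130.1 ± 37.0 in male thyroid, 117.5 ± 28.1 in female thyroid, 70.1 ± 26.8 in male kidney, 68.5 ± 8.37 in ovary and 4.37 ± 0.945 in testis. It held 47.7 and 46.6% of the summed matrix counts of male and female liver. Timp3, an inhibitor of metalloproteinases that stays bound to the matrix, averaged 759 ± 62.8 in male kidney and 696 ± 66.1 in female kidney, whose ranges overlapped, and 270 ± 76.4 in male thyroid as the next highest. Timp1, a secreted inhibitor, averaged 983 ± 160.5 in ovary, where each rat stood far above the 32.8 ± 8.75 in male thyroid, 24.5 ± 2.47 in testis, 19.7 ± 6.97 in female kidney, 17.8 ± 3.34 in female thyroid, 10.9 ± 0.592 in male kidney, 9.54 ± 0.580 in male liver and 7.20 ± 2.57 in female liver. Col16a1, a fibril-associated collagen, averaged 391 ± 52.9 in testis and 66.3 ± 2.44 in ovary. It was the member with the most counts in testis, at 29.6% of the sum. Dcn, the decorin gene, averaged 861 ± 83.2 in male thyroid, 784 ± 176 in female thyroid, 715 ± 189 in ovary and 516 ± 205 in female kidney, where neighbours in that order overlapped, and 151 ± 15.3 in male kidney, 57.2 ± 25.7 in testis, 23.4 ± 6.05 in female liver and 23.1 ± 9.36 in male liver. Sparc, a collagen-binding glycoprotein of the pericellular matrix, was among the 3 members with the most counts in all 8 combinations, with 3056 ± 112.7 in ovary, 2048 ± 368 in male thyroid, 1502 ± 556 in female thyroid, 1059.8 ± 183 in female kidney, 914 ± 120 in male kidney, 334 ± 101 in testis, 329.8 ± 44.9 in male liver and 322 ± 83.1 in female liver. The last 3 did not differ beyond their spread. Col4a1, a chain found in nearly all basement membranes, averaged 329 ± 66.1 in ovary, 309 ± 35.9 in male thyroid, 295 ± 18.1 in male kidney and 293 ± 47.8 in female kidney, with overlapping ranges. It was lower in female thyroid (179.8 ± 36.3), male liver (33.2 ± 3.90), female liver (27.7 ± 5.86) and testis (24.9 ± 2.12).

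Male kidney gave the broadest shift of matrix genes under BPA, but few genes passed the test. Dcn rose in BPA kidneys against vehicle, and in Mix kidneys Dcn, Col3a1, Col1a2 and Col1a1 were lower than in BPA kidneys. Levels within an organ are TMM-scaled CPM, and differences are log2 ratios with their standard error from edgeR's quasi-likelihood test, with p-values corrected across every gene tested (Benjamini-Hochberg) and an adjusted p below 0.05 called a change. All 3 BPA kidneys had a larger ribosomal RNA share than all 3 vehicle kidneys, so that a difference by treatment and one by library cannot be told apart here. Dcn was at 193, 197 and 284 CPM in Mix kidneys, 455, 487 and 517 CPM in BPA kidneys and 124, 144 and 128.3 CPM in vehicle kidneys. The 3 groups did not overlap. Dcn was 3.68-fold higher in BPA than in vehicle kidneys (log2 difference 1.88 ± 0.18, edgeR adjusted p = 0.00358). The log2 difference of Mix from vehicle was 0.77 ± 0.18 and did not pass (edgeR adjusted p = 0.38). That of Mix from BPA was -1.11 ± 0.18 (edgeR adjusted p = 0.0115).

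Of the 28 members tested in male kidney, 1 rose and 0 fell with BPA against vehicle, where 0.0455% of 11000 genes rose, 0.0909% fell and 0.136% changed either way. At an unadjusted p below 0.05, 18 members were higher and 1 lower, and 25 of 28 estimates were positive. Over all 11000 genes, 20.96% had an unadjusted p below 0.05 in either direction, and 50.78% of estimates were positive. The median log2 difference was 0.90 over the 28 members and 0.01 over all genes. All 5 fibrillar collagens tested had positive estimates with a median of 1.18, all 5 basement membrane collagens with a median of 0.46, and the 3 small proteoglycans with a median of 0.88. The exceptions were Col9a1, Col9a2 and Timp3. Timp3, the member with the second most counts in this organ, was at 513, 545 and 660 CPM in Mix, 397, 478 and 450 CPM in BPA and 656, 620 and 717 CPM in vehicle kidneys. Every BPA kidney lay under every other kidney (log2 difference -0.59 ± 0.16 in BPA against vehicle, edgeR adjusted p = 0.102). DESeq2 called 12 members in this comparison, a count given without the share of all genes it called. Leaving out vehicle replicate 1 or vehicle replicate 3 ended the call of Dcn and left 0 members. Leaving out Mix replicate 1 gave 13 and Mix replicate 2 gave 6 members called, and a fit with the ribosomal RNA share as a covariate gave 0, with Dcn at 1.93 ± 0.31 (edgeR adjusted p = 0.106). These counts too are given without the share of all genes called in the same fit.

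Mix against BPA gave 4 members lower and 0 higher of 28, where 0.355% of 11000 genes were lower, 2.57% higher and 2.93% changed either way. Col3a1 was at 38.6, 51.0 and 53.8 CPM in Mix, 147, 134 and 222 CPM in BPA and 50.5, 87.8 and 84.3 CPM in vehicle kidneys. All BPA kidneys stood above the others, and it differed by -1.81 ± 0.26 between Mix and BPA (edgeR adjusted p = 0.00833). Col1a2 was at 121, 69.1 and 120 CPM in Mix, 361, 259 and 251 CPM in BPA and 70.1, 120 and 143 CPM in vehicle kidneys, a difference of -1.49 ± 0.29 between Mix and BPA (edgeR adjusted p = 0.0211). Col1a1 was at 73.5, 37.3 and 63.5 CPM in Mix, 176, 141 and 151 CPM in BPA and 41.1, 68.3 and 92.8 CPM in vehicle kidneys, a difference of -1.43 ± 0.30 between Mix and BPA (edgeR adjusted p = 0.0274). For each of these collagens Mix and vehicle ranges overlapped, and Mix against vehicle gave 0 of 28 members (edgeR; 2 higher and 1 lower at an unadjusted p below 0.05; DESeq2 called 1), where 0.0273% of 11000 genes changed (0.0182% higher and 0.00909% lower). In Mix against vehicle 9.2% of all genes had an unadjusted p below 0.05. The estimates of Col3a1, Col1a2 and Col1a1 in BPA against vehicle were 1.18 ± 0.25, 1.38 ± 0.29 and 1.21 ± 0.30, with edgeR adjusted p = 0.0728, 0.0713 and 0.0835. Without BPA replicate 1, 2 or 3 the count of members lower in Mix than in BPA was 2, 1 and 1, and without Mix replicate 1 it was 12; Col3a1 passed in each of the 9 fits that left out a library. With the ribosomal RNA share as a covariate 2 members passed, Col3a1 and Dcn. The shares of all genes called in these alternative fits are not given.

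**Figure D2:**
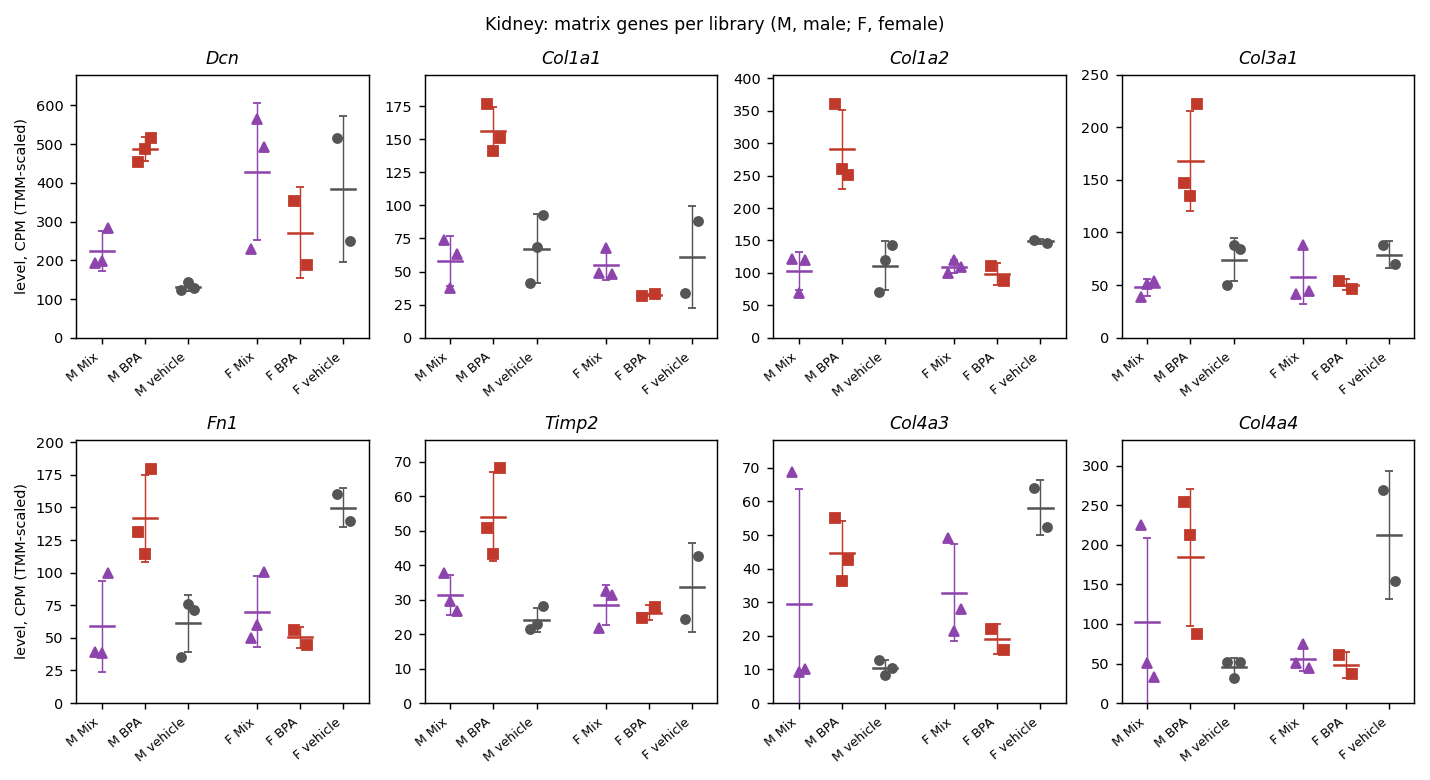
Levels of 8 matrix genes in kidney (vertical axis, TMM-scaled CPM), one point per library, for Mix, BPA and vehicle rats of each sex (M, male; F, female); horizontal lines are means and error bars SD, cut at 0. In males Dcn, Col1a1, Col1a2 and Col3a1 are highest in the 3 BPA libraries, while Col4a3 and Col4a4 are also high in Mix replicate 1; in females Fn1, Col4a3 and Col4a4 are highest in the 2 vehicle libraries.

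Members of male kidney were also read by the order of the libraries, beside their ribosomal RNA shares. Mix replicate 1 had 20.2% ribosomal RNA, as against 1.42 and 6.04% in the other 2 Mix kidneys, and so stood with the 3 BPA kidneys (37.2, 16.4 and 36.9%) rather than with the vehicle kidneys (3.50, 1.71 and 2.53%). In 10 of the 28 members the 3 BPA kidneys were all above the other 6, and these were Bgn, Col1a1, Col1a2, Col3a1, Col5a2, Col8a1, Dcn, Fn1, Mmp2 and Timp2; 4.4% of 11000 genes had that order. In 10 of 28 the 4 kidneys with over 10% ribosomal RNA were all above the other 5, and these were Adamts5, Col11a1, Col14a1, Col4a3, Col4a4, Col5a2, Col6a2, Mmp2, Sparc and Timp2; 7.63% of 11000 genes had that order. Only Col5a2, Mmp2 and Timp2 met both, and the members not named here met neither. These orders were sought after the values were seen and carry no test.

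Col4a3 and Col4a4 showed the second order most plainly. They encode 2 chains of the type IV collagen network of the glomerular basement membrane and are transcribed in opposite directions from neighbouring start sites. Col4a3 was at 68.8, 9.11 and 10.2 CPM in Mix, 55.0, 36.2 and 42.5 CPM in BPA and 12.8, 8.24 and 10.3 CPM in vehicle kidneys. Col4a4 was at 225, 50.8 and 33.3 CPM in Mix, 254, 212 and 87.2 CPM in BPA and 52.0, 32.3 and 51.8 CPM in vehicle kidneys. Both were thus high in all BPA kidneys and in Mix replicate 1 and low elsewhere, and neither passed the test in BPA against vehicle (2.09 ± 0.63 and 2.02 ± 0.61, edgeR adjusted p = 0.113 for both). With the ribosomal RNA share as a covariate these estimates were -0.41 ± 0.55 and 0.42 ± 0.75.

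Their start regions are shown because the genes lie head to head and shared one order of libraries. RefSeq on build GRCr8 places the 300 bases around the Col4a3 start at chr9:91323740-91324039 on the plus strand and those around the Col4a4 start at chr9:91323528-91323827 on the minus strand, each with 250 bases before and 50 after the start. The start sites are 413 bases apart and the windows share 88 bases, printed in capitals, which are reverse complements of each other in the 2 lines (both 5′ to 3′ on the strand of the gene).
Col4a3: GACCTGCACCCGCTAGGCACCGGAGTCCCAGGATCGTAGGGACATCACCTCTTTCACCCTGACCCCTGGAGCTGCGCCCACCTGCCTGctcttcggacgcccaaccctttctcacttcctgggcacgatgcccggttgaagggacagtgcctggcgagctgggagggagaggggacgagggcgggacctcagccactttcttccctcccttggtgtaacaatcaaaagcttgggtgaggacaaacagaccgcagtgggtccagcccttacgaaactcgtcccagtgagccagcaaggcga
Col4a4: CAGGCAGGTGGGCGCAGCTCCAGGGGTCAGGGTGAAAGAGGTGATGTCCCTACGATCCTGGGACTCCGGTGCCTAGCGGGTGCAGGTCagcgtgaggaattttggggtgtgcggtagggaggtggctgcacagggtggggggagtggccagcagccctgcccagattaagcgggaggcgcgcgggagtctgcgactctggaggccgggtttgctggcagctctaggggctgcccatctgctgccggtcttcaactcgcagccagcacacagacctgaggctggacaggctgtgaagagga
Both windows are rich in G and C, at 62.0 and 65.3%. On either strand, GGGCGG (the GC box) occurred once in the Col4a3 window and not in the Col4a4 window, and in 33.1% of 33469 promoters of the same length. The letters TATAAA were in neither window and in 14.2% of all promoters. The letters CCAAT were in neither window and in 37.5% of all promoters, and the AP-1 motif TGAGTCA was in neither and in 4.63% of them. A promoter was at hand for 29 of the 42 members, of which 16 held GGGCGG. The deposited counts used build rn6, so no coordinate of theirs is set beside these.

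Female kidney moved the other way, without a call. Of 27 members tested, 0 passed in BPA against vehicle, where 0% of 10681 genes did, and at an unadjusted p below 0.05 in edgeR 10 were lower and 0 higher. The median log2 difference was -0.59 over the members and -0.02 over all genes, and 2 of 27 estimates were positive. Over all genes, 16.4% had an unadjusted p below 0.05 in either direction, and 48.8% of estimates were positive. Fn1 was at 49.6, 60.1 and 101 CPM in Mix, 56.2 and 44.5 CPM in BPA and 160 and 139 CPM in vehicle kidneys. Both vehicle kidneys stood above all others (BPA against vehicle -1.57 ± 0.32, edgeR adjusted p = 0.151). Col4a4 was at 50.6, 74.2 and 44.0 CPM in Mix, 60.3 and 36.7 CPM in BPA and 270 and 155 CPM in vehicle kidneys, again with both vehicle kidneys apart (BPA against vehicle -2.12 ± 0.37, edgeR adjusted p = 0.151). Col4a3 was at 49.0, 21.4 and 27.97 CPM in Mix, 22.1 and 15.9 CPM in BPA and 64.0 and 52.3 CPM in vehicle kidneys. Col5a2, a chain that joins type I fibrils, was at 13.5, 13.1 and 13.6 CPM in Mix, 8.78 and 12.3 CPM in BPA and 29.7 and 21.6 CPM in vehicle kidneys. Ribosomal RNA shares were 20.6, 17.5 and 17.8% in Mix, 17.2 and 20.9% in BPA and 37.1 and 19.2% in vehicle kidneys. Vehicle replicate 2 had high Fn1, Col4a3 and Col4a4 at a share inside the range of the Mix and BPA kidneys. Vehicle replicate 1, with the largest share at 37.1%, was the higher of the 2 vehicle kidneys in each of these genes.

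Mix against vehicle in female kidney gave 0 of 27 members (edgeR; 6 lower and 0 higher at an unadjusted p below 0.05; DESeq2 called 2), where 0% of 10681 genes passed, and the median was -0.37 over the members. Mix against BPA gave 0 members (3 higher and 0 lower unadjusted, and 0 by DESeq2), where again 0% passed. An unadjusted p below 0.05 was reached by 10.4% of all genes in Mix against vehicle and 7.29% in Mix against BPA. Col6a2, a chain of the beaded-filament type VI collagen, was at 22.1, 19.9 and 34.0 CPM in Mix, 15.8 and 13.7 CPM in BPA and 19.2 and 28.3 CPM in vehicle kidneys (Mix against BPA 0.78 ± 0.31, edgeR adjusted p = 0.683), with both BPA kidneys below the rest. Tnc, the tenascin C gene, had 9, 7 and 13 counts in Mix, 0 and 0 in BPA and 2 and 21 in vehicle kidneys. A count of 0 is compatible with up to 3 counts per library, 0.599 CPM on average here. The Mix mean was 2.38-fold that limit, which allows for counting error in the BPA kidneys only, not in Mix or between rats. Tnc did not pass in Mix against BPA (edgeR adjusted p = 0.683). With 0 counts in BPA, the low-count filter kept Tnc through the other kidneys. The vehicle level rests on vehicle replicate 2, since the other is within that limit. In BPA against vehicle DESeq2 called 3 members, the fit without the low-count filter gave 4, the fit without vehicle replicate 1 gave 3, and the fit with the ribosomal RNA share as a covariate 4, namely Col1a1, Col4a4, Fn1 and Tnc, all lower. The shares of all genes called in these alternative fits, and by DESeq2 in Mix against vehicle, are not given. The counts therefore do not show whether matrix genes were called more often than others.

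The BPA response of matrix genes differed between male and female kidney. When both sexes were fitted together, 11 of 31 members differed in the log2 difference of BPA against vehicle, all with a higher value in males, where 2.16% of 11651 genes differed in that direction and 4.73% in either. The median difference of differences was 1.51 over the members and 0.03 over all genes. The members were Col1a1, Col1a2, Col3a1, Col5a2, Col4a3, Col4a4, Dcn, Fn1, Tnc, Mmp2 and Timp2. Fn1, for example, was at 39.1, 38.3 and 99.4 CPM in Mix, 132, 114 and 179 CPM in BPA and 35.5, 76.3 and 71.3 CPM in vehicle kidneys of males. The male BPA libraries stood above the male vehicle libraries where the female BPA libraries stood below the female ones (male minus female 2.78 ± 0.58, edgeR adjusted p = 0.0201). With the ribosomal RNA share as a covariate, an alternative added after the data were seen, 0 of the 31 members and 2 genes in all passed. The count was 0 without male vehicle replicate 1 or female BPA replicate 2, 1 without female BPA replicate 1 and 3 without female vehicle replicate 2. For Mix against vehicle 0 of 31 members differed by sex (edgeR; 4 higher in males and 0 lower at an unadjusted p below 0.05), where 0.00858% of genes did. The lowest p-values there belonged to Col4a4 (male minus female 3.09 ± 0.80, edgeR adjusted p = 0.334) and Col16a1 (1.88 ± 0.61, edgeR adjusted p = 0.362). Among all 11651 genes, 10.1% had an unadjusted p below 0.05 for this sex difference in Mix.

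Stromal markers were high in male BPA kidneys. In female kidneys their sum was lower in both BPA than in both vehicle kidneys, and Mix overlapped each of these groups. The summed level of 5 fibroblast genes (Pdgfra, Pdgfrb, Tcf21, Vim and Thy1) was 139 to 162 CPM in Mix, but 194 to 226 in BPA, and 125 to 144 in vehicle kidneys of males. In females it was 110.8 to 229 CPM in Mix, with 111.9 to 151 in BPA, and 165 to 231 in vehicle kidneys. The 229 CPM belonged to Mix replicate 2, a library that also stood apart in adipocyte genes, with a sum of 848 CPM (Adipoq at 125.6 CPM, against at most 26.0 CPM in the other female kidneys), and in smooth muscle genes, with a sum of 307 CPM. Without it 0 members passed in any comparison of female kidney, and the median of Mix against vehicle was -0.40. Vim was at 58.6, 165 and 73.8 CPM in Mix, 103 and 61.5 CPM in BPA and 64.8 and 100.4 CPM in vehicle female kidneys, with overlap. Tcf21, a transcription factor of interstitial stroma and podocytes, was at 9.08, 14.3 and 11.2 CPM in Mix, 23.8, 27.5 and 28.7 CPM in BPA and 7.73, 8.32 and 9.66 CPM in vehicle male kidneys. In females it was 7.72, 8.64 and 11.3 CPM in Mix, 8.26 and 11.6 CPM in BPA and 27.1 and 33.2 CPM in vehicle kidneys. Slc34a1, the phosphate transporter of proximal tubule, ran the other way in males, at 1438, 2750.0 and 1535 CPM in Mix, 1017, 1039 and 935 CPM in BPA and 2683, 2171 and 2595 CPM in vehicle kidneys. In females it was at 1819, 1392 and 1262 CPM in Mix, 1410 and 1356 CPM in BPA and 1320 and 483 CPM in vehicle kidneys. Tubule genes of females did not all move one way. Slc34a1 and Slc5a2 were higher in both BPA than in both vehicle kidneys, and Lrp2, Cubn and Umod were lower. For males only Slc34a1 is given. In bulk tissue, fewer cells of a type and less RNA per cell cannot be told apart. The summed germ cell transcripts of male kidneys were between 933 and 1849 CPM in Mix, between 41.96 and 221 in BPA, and between 252 and 511 in vehicle libraries. The part of tissue composition and of these transcripts in the differences was not tested.

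The ovary was the other organ in which matrix genes passed the test, and there the bisphenol groups resembled each other. Sfrp4, Cthrc1, Timp1, Mmp2 and Tnc fell and Adamts5 and Col11a1 rose in both Mix and BPA ovaries against the same 3 vehicle ovaries. Collagens other than Col11a1 did not pass. BPA against vehicle gave 2 members higher and 5 lower of 33 tested, where 2.91% of 10871 genes rose and 3.88% fell, and Mix against vehicle gave 2 higher and 5 lower, where 4.13% rose and 4.99% fell. The median log2 difference over the 33 members was 0.03 in Mix and 0.04 in BPA against vehicle, and 0.01 over all genes in both.

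Sfrp4, a secreted Wnt binder that ovarian granulosa and luteal cells express in rodents, was at 23.6, 26.1 and 22.8 CPM in Mix, 25.6, 11.9 and 28.1 CPM in BPA and 96.3, 109 and 234 CPM in vehicle ovaries. All treated ovaries lay below all vehicle ovaries, with log2 differences from vehicle of -2.60 ± 0.35 in Mix (edgeR adjusted p = 0.00185) and -2.73 ± 0.35 in BPA (edgeR adjusted p = 0.00141). Cthrc1, a secreted glycoprotein named for its collagen-like repeat, was at 2.99, 3.96 and 1.92 CPM in Mix, 5.15, 0.692 and 1.22 CPM in BPA and 30.3, 42.5 and 42.3 CPM in vehicle ovaries. It was lower by the widest margin of the 7, with -3.68 ± 0.51 in Mix and -3.93 ± 0.52 in BPA (edgeR adjusted p = 0.00216 and 0.0017). Tnc, a glycoprotein of remodelling matrix, was at 4.02, 4.49 and 1.60 CPM in Mix, 6.53, 2.77 and 1.83 CPM in BPA and 22.5, 7.91 and 15.2 CPM in vehicle ovaries. All treated ovaries lay below all vehicle ovaries (-2.16 ± 0.55 in Mix and -2.01 ± 0.54 in BPA, edgeR adjusted p = 0.0289 and 0.044), but 1 library often decided the call. It was lost without vehicle replicate 1 or 3 in both comparisons. The highest adjusted p over the fits that left out a library was 0.104 for Mix and 0.156 for BPA.

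Among the proteases and inhibitors the members moved in different directions. Timp1 was at 439, 465 and 369 CPM in Mix, 308, 332 and 193 CPM in BPA and 914, 846 and 703 CPM in vehicle ovaries. BPA was lowest and Mix between, with no overlap (-0.95 ± 0.20 in Mix and -1.56 ± 0.20 in BPA, edgeR adjusted p = 0.0143 and 0.00141). The difference between Mix and BPA itself, 0.61 ± 0.20, did not pass (edgeR adjusted p = 0.22). Timp2 and Timp3 did not follow Timp1. Timp2 averaged 171 ± 7.99 CPM in Mix, 185 ± 35.9 CPM in BPA and 214 ± 20.99 CPM in vehicle ovaries. Timp3 averaged 124 ± 28.4, 125 ± 23.3 and 76.2 ± 22.9 CPM in the same order (SD, n = 3 each). It had a log2 difference from vehicle of 0.71 ± 0.23 for both Mix and BPA (edgeR adjusted p = 0.0782 and 0.0896). Mmp2, a gelatinase that cleaves type IV collagen, was at 43.0, 37.4 and 31.5 CPM in Mix, 53.4, 36.7 and 39.7 CPM in BPA and 70.1, 116 and 136 CPM in vehicle ovaries. No treated ovary reached the lowest vehicle ovary (-1.52 ± 0.23 and -1.31 ± 0.23, edgeR adjusted p = 0.00354 and 0.00823). Adamts5, a protease of versican and aggrecan, was at 14.5, 9.11 and 18.8 CPM in Mix, 12.0, 23.9 and 33.2 CPM in BPA and 0.603, 3.68 and 3.75 CPM in vehicle ovaries. It was 5.33-fold higher in Mix and 8.65-fold higher in BPA than in vehicle ovaries (2.41 ± 0.54 and 3.11 ± 0.54, edgeR adjusted p = 0.018 and 0.0076).

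**Figure D3:**
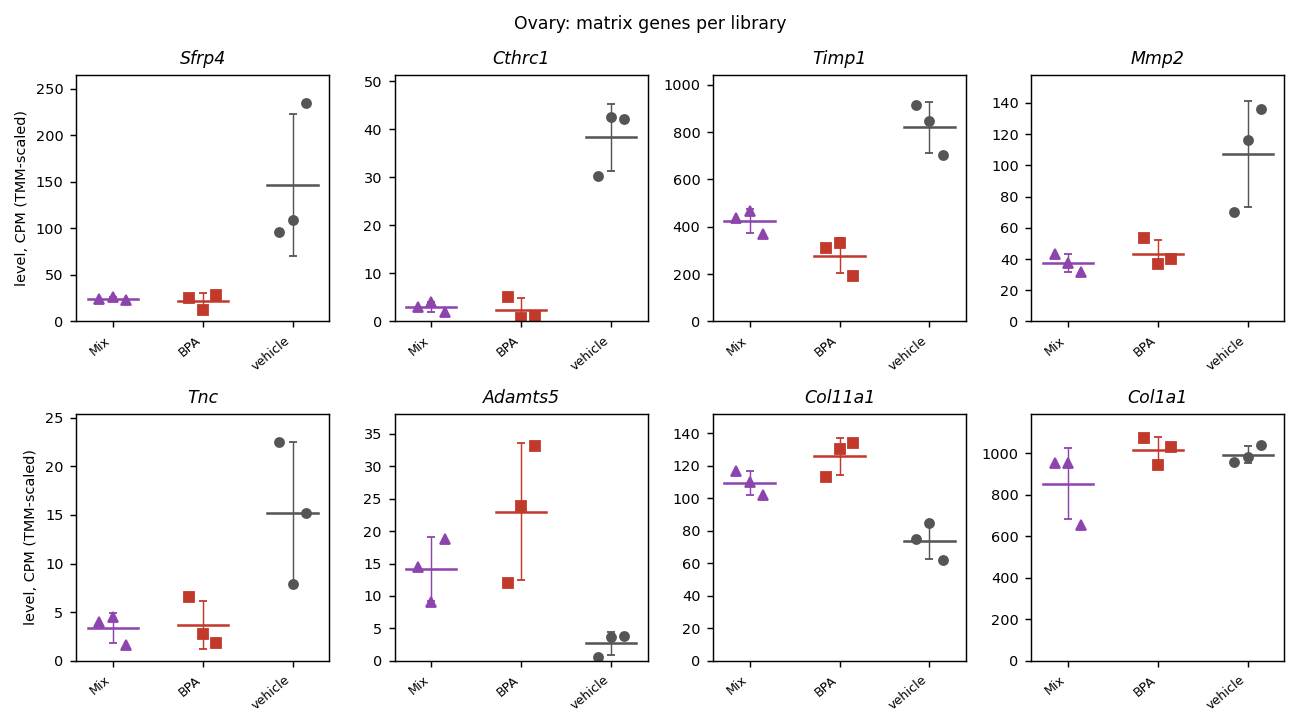
Levels of 8 matrix genes in ovary (vertical axis, TMM-scaled CPM), one point per library, for Mix, BPA and vehicle rats; horizontal lines are means and error bars SD. In each of Sfrp4, Cthrc1, Timp1, Mmp2 and Tnc all 6 treated ovaries lie below all 3 vehicle ovaries, in Adamts5 and Col11a1 all lie above them, and in Col1a1 the groups overlap.

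Fibrillar collagens of the ovary overlapped between groups. Col1a1 was at 952, 952 and 655 CPM in Mix, 1071, 944 and 1029 CPM in BPA and 957, 983 and 1038 CPM in vehicle ovaries. The 95% interval of its log2 difference from vehicle was -0.57 to 0.13 in Mix and -0.32 to 0.38 in BPA. Col3a1 averaged 660 ± 179 CPM in Mix, 703 ± 104 CPM in BPA and 693 ± 142 CPM in vehicle ovaries. Dcn averaged 732 ± 79.4, 751 ± 35.5 and 599 ± 161 CPM in the same order (SD, n = 3 each). Col11a1, a minor chain that joins cartilage-type fibrils, was the exception: it was at 117, 110 and 102 CPM in Mix, 113.008, 131 and 134 CPM in BPA and 74.9, 84.7 and 62.3 CPM in vehicle ovaries. It was higher by 0.57 ± 0.15 in Mix and 0.77 ± 0.15 in BPA (edgeR adjusted p = 0.0306 and 0.0108), although in Mix the call was lost without any 1 of the 3 vehicle ovaries. Mix against BPA gave 0 of 33 members (edgeR; 1 higher and 1 lower at an unadjusted p below 0.05; DESeq2 called 1), where 0.212% of 10871 genes changed. The lowest p-value after that of Timp1 was that of Col16a1, with 49.2, 43.7 and 31.0 CPM in Mix, 58.4, 51.8 and 61.2 CPM in BPA and 53.5, 53.9 and 59.2 CPM in vehicle ovaries (Mix against BPA -0.47 ± 0.17, edgeR adjusted p = 0.291). For Mix against BPA, 12.0% of all genes had an unadjusted p below 0.05.

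Across the fits that left out 1 ovary, Sfrp4, Cthrc1 and Mmp2 passed in 9 of 9 in both comparisons with vehicle, and Timp1 and Adamts5 in 9 of 9 in BPA and in 7 and 6 of 9 in Mix. The count in Mix fell to 4 without vehicle replicate 2 or Mix replicate 1 and to 3 without Mix replicate 3. Ribosomal RNA shares were 18.7, 23.8 and 22.1% in Mix, 12.4, 18.5 and 19.1% in BPA and 20.7, 29.4 and 23.7% in vehicle ovaries, so that BPA lay wholly below vehicle and Mix overlapped both. With that share as a covariate, 7 members passed in Mix and 6 in BPA against vehicle, and Mmp2 in BPA did not (edgeR adjusted p = 0.0796). Markers of ovarian cells did not all move one way. Of the 4 with a row, Lhcgr and Cyp19a1 were higher in all treated than in all vehicle ovaries, Inhba overlapped between Mix and vehicle, and Amhr2 was below vehicle in all Mix and above it in all BPA ovaries. Lhcgr, the receptor for luteinizing hormone, was at 20.8, 57.3 and 32.3 CPM in Mix, 50.1, 35.5 and 24.9 CPM in BPA and 4.98, 2.21 and 1.63 CPM in vehicle ovaries. The summed level of 6 macrophage genes was 200.2 to 343, 167 to 273 and 333 to 418 CPM in the same order, with Marco at 0 in every ovary. Tnp1, a transcript of spermatids, was at 0.519 to 39.3 CPM in the treated ovaries and at 222, 527 and 0.490 CPM in vehicle ovaries. The part of these cells and transcripts in the ovarian differences was not tested.

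The livers, the thyroids and the testis gave 0 members in every comparison by edgeR. In male liver 21 members were tested, and 0 passed in any comparison. Of 9669 genes, 0.321% passed in Mix against vehicle, 0.228% in BPA against vehicle (0.0517% higher and 0.176% lower) and 0.0103% in Mix against BPA. An unadjusted p below 0.05 held for 7.58% of all genes in BPA and 6.71% in Mix against vehicle, and 6.18% in Mix against BPA. Among the members, 1 was lower at that limit in BPA against vehicle and 0 changed in the others, and DESeq2 called 0. That member was Lox, a collagen cross-linking oxidase, at 0, 0.660 and 0.806 CPM in Mix, 0.887, 0 and 0.435 CPM in BPA and 2.53, 1.81 and 1.56 CPM in vehicle livers. All treated livers lay below all vehicle livers without passing the test (BPA against vehicle -2.14 ± 0.96 and Mix against vehicle -1.98 ± 0.93, edgeR adjusted p = 0.647 and 0.746). These levels were near the floor, and no treated liver exceeded 0.887 CPM. Lox was thus kept by the low-count filter through the vehicle livers, so the order of the groups is no separate support for a difference. Fn1 was at 885, 635 and 1021 CPM in Mix, 562, 844 and 673 CPM in BPA and 935, 774 and 1033 CPM in vehicle male livers, with overlap of all groups (BPA against vehicle -0.40 ± 0.23, edgeR adjusted p = 0.742). The inhibitors were low in male liver and their groups overlapped. Timp3 differed by -0.54 ± 0.28 in Mix against vehicle (edgeR adjusted p = 0.782), and Timp1 and Timp2 by 0.51 ± 0.35 and 0.39 ± 0.28 in Mix against BPA (edgeR adjusted p = 0.889 and 0.9). In female liver 20 members were tested and 0 passed in each comparison, where 0.419% of 9554 genes passed in BPA against vehicle, 0.0523% in Mix against vehicle and 0% in Mix against BPA; DESeq2 called 0. Col18a1, whose protein holds the endostatin fragment, was at 226, 231 and 190 CPM in Mix, 235, 322 and 183 CPM in BPA and 139, 122 and 193 CPM in vehicle livers, with overlap (BPA against vehicle 0.70 ± 0.23, edgeR adjusted p = 0.233). Fn1 was at 541, 665 and 556 CPM in Mix, 622, 441 and 358 CPM in BPA and 736, 709 and 655 CPM in vehicle female livers, where Mix replicate 2 alone reached the vehicle range (BPA against vehicle -0.56 ± 0.21, edgeR adjusted p = 0.298). Mix against vehicle differed by 0.51 ± 0.23 in Col18a1 and -0.74 ± 0.34 in Timp2 (edgeR adjusted p = 0.728 and 0.737). Mix against BPA differed by 2.62 ± 0.98 in Col16a1, at most 2.20 CPM in any of these livers, and 0.51 ± 0.25 in Col1a2 (edgeR adjusted p = 0.682 and 0.765). Unadjusted, 1 member was higher and 1 lower in each comparison of female liver with vehicle, and 1 was higher in Mix against BPA. Liver differences between the sexes passed in 0 of 21 members for either substance (edgeR; 1 lower at an unadjusted p below 0.05 each), where 0.209% of 10044 genes passed for BPA and 0.189% for Mix. The lowest p-values were those of Col18a1 (-0.81 ± 0.38) and Timp3 (-0.77 ± 0.39) for BPA, and of Col16a1 (-2.36 ± 1.09) and Lox (-5.15 ± 2.66, near 0 counts) for Mix. For this sex difference 9.62% of all genes had an unadjusted p below 0.05 in BPA and 6.33% in Mix.

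In thyroid the fibrillar collagens of males were spread widely. In male thyroid 31 members were tested, and 0 passed in each of the 3 comparisons, where 0% of 11119 genes did; DESeq2 called 0. The median log2 difference of BPA against vehicle was -0.48 over the members and 0.07 over all genes, and 25 of 31 estimates were not positive, with 3 lower and 0 higher at an unadjusted p below 0.05. Mix against vehicle gave 1 higher and 2 lower unadjusted, and Mix against BPA 4 higher and 1 lower. The unadjusted share of all genes was 8.23% in BPA and 4.96% in Mix against vehicle, and 13.8% in Mix against BPA. BPA replicate 1, the library with germ cell transcripts, also held the most Col16a1, the collagen that leads in testis: 11.4, 4.87 and 3.30 CPM in Mix, 107.6, 3.48 and 6.71 CPM in BPA and 7.39, 7.56 and 8.72 CPM in vehicle thyroids. Without it 0 members passed in any comparison, and the median of BPA against vehicle was -0.34. Col1a2 was at 553, 971 and 480 CPM in Mix, 438, 652 and 652 CPM in BPA and 1499, 838 and 1111 CPM in vehicle thyroids, and all BPA thyroids lay below all vehicle thyroids (-0.98 ± 0.32, edgeR adjusted p = 0.586). Col15a1, a collagen of the zone next to basement membranes, was at 27.0, 28.7 and 16.6 CPM in Mix, 10.54, 13.4 and 19.0 CPM in BPA and 29.7, 19.3 and 26.4 CPM in vehicle thyroids, and here too BPA lay below vehicle (-0.81 ± 0.33, edgeR adjusted p = 0.586). Without BPA replicate 1 these differences were -0.83 in Col1a2 and -0.64 in Col15a1 (edgeR adjusted p = 0.617 and 0.662). Mix against vehicle differed by -0.77 ± 0.27 in Col5a3 and 0.53 ± 0.20 in Timp2 (edgeR adjusted p = 0.922 for both). Mix against BPA differed by 0.94 ± 0.33 in Timp3 and 0.88 ± 0.37 in Col8a1, a short-chain collagen (edgeR adjusted p = 0.304 and 0.336), and by 0.85 and 1.09 without BPA replicate 1. Parathyroid transcripts of the same libraries were at 37354 to 54142 CPM in Mix, at 29977 to 96165 CPM in BPA and at 34427 to 44671 CPM in vehicle. Thyroid follicle genes ran from 62791 to 83833, 40736 to 67879 and 71580 to 105979 CPM in the same order. The part of these cells and of the germ cell transcripts in the collagen levels was not tested.

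In female thyroid 32 members were tested. Mix against vehicle gave 0 (5 higher and 1 lower at an unadjusted p below 0.05 in edgeR; DESeq2 called 5), where 0.00899% of 11127 genes passed. BPA against vehicle gave 0 (4 higher and 2 lower; DESeq2 2), where 0% did, and Mix against BPA 0 (0 and 0; DESeq2 0), where 0% did. Among all 11127 genes, an unadjusted p below 0.05 in either direction was reached by 23.02% in Mix and 13.35% in BPA against vehicle. In Mix against BPA it was reached by 5.84%. The shares of all genes called by DESeq2 are not given. Timp3 was at 481, 395 and 571 CPM in Mix, 285, 241 and 438 CPM in BPA and 186, 151 and 148 CPM in vehicle thyroids. Both treated groups lay wholly above vehicle (1.58 ± 0.27 in Mix and 0.99 ± 0.27 in BPA, edgeR adjusted p = 0.0725 and 0.328). Adamts5 had 18, 12 and 36 counts in Mix, 8, 17 and 12 in BPA and 0 in each vehicle thyroid. Set against a floor of 3 counts per library (0.394 CPM) for vehicle, its mean was 9.45-fold higher in Mix and 4.12-fold higher in BPA. These ratios allow for counting error in the vehicle thyroids only, not for that in the treated thyroids or for the spread between rats. With 0 counts in vehicle, the low-count filter kept Adamts5 through the treated thyroids. The order of the groups is therefore no separate support for a difference. Single libraries ran from 1.92 to 6.55 CPM in Mix and from 1.10 to 2.40 CPM in BPA. Adamts5 did not pass in either comparison (edgeR adjusted p = 0.0725 in Mix and 0.328 in BPA against vehicle). Fn1 was at 53.2, 66.6 and 51.3 CPM in Mix, 58.1, 79.5 and 59.9 CPM in BPA and 91.1, 105 and 162 CPM in vehicle thyroids, again without overlap (-1.07 ± 0.27 in Mix, edgeR adjusted p = 0.0756). The hepatocyte transcript Alb was at 8.67, 42.6 and 38.9 CPM in Mix, 7.29, 29.2 and 90.2 CPM in BPA and 2635, 881 and 56.1 CPM in vehicle thyroids. The adipocyte transcript Fabp4 was at 339, 970 and 216, 269, 876 and 579, and 463, 1631 and 4733 CPM in the same order. The part of such transcripts in the Fn1 levels was not tested. Mix against BPA differed by 0.59 ± 0.26 in Timp3 and -0.88 ± 0.46 in Col18a1 (edgeR adjusted p = 0.85 and 0.9). The Mix thyroids had the highest ribosomal RNA shares of this organ. Without vehicle replicate 1, the library with the most Tnp1, the count was 7 members in Mix and 6 in BPA against vehicle. Without vehicle replicate 2, which also held Tnp1, it was 0 in both. The shares of all genes called in these fits are not given. The counts therefore do not show whether matrix genes were called more often than others. The difference of the BPA response between male and female thyroid passed in 0 of 33 members (edgeR; 9 lower and 0 higher in males at an unadjusted p below 0.05), and that of Mix in 0 (7 lower and 0 higher), where 0% of 12003 genes passed for both. Among all 12003 genes, 17.0% had an unadjusted p below 0.05 for BPA and 8.60% for Mix. Without female vehicle replicate 1 the counts of members that passed were 4 and 2, and without male BPA replicate 1 they were 0. Here too the share of all genes that passed is not given. The lowest p-values for BPA were those of Timp3 (male minus female -1.77 ± 0.45) and Col6a2 (-1.09 ± 0.33, edgeR adjusted p = 0.233 for both), and for Mix those of Adamts5, at 0 in female vehicle thyroids, and Timp3 (-1.39 ± 0.44, edgeR adjusted p = 0.469).

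In testis 25 members were tested and 0 passed in each comparison by edgeR and by DESeq2, where 0% of 11098 genes passed in both comparisons with vehicle and 0.775% in Mix against BPA. Unadjusted, 2 members were lower in BPA and 1 in Mix against vehicle, and 3 were higher in Mix than in BPA. The unadjusted share of all genes was 12.0% in BPA and 5.33% in Mix against vehicle, and 17.2% in Mix against BPA. Fn1, low in this organ, was at 2.38, 3.31 and 3.16 CPM in Mix, 1.401, 0.937 and 1.80 CPM in BPA and 4.21, 5.04 and 3.22 CPM in vehicle testes. Every BPA testis lay below every other testis (BPA against vehicle -1.59 ± 0.36, edgeR adjusted p = 0.245; Mix against BPA 1.10 ± 0.38, edgeR adjusted p = 0.17). Col4a1 was at 19.3, 25.1 and 18.8 CPM in Mix, 17.9, 16.5 and 14.0 CPM in BPA and 23.6, 25.8 and 21.6 CPM in vehicle testes, with BPA again lowest (-0.55 ± 0.17 against vehicle, edgeR adjusted p = 0.268). Mix against vehicle differed by -1.19 ± 0.52 in Col3a1, for which vehicle replicate 2 alone was high at 104 CPM, and by 0.96 ± 0.47 in Col11a2 (edgeR adjusted p = 0.934 and 0.966). Mix against BPA differed by 2.17 ± 0.85 in Col6a4, under 2.1 CPM throughout (edgeR adjusted p = 0.213). Col16a1, the leading member there, was at 423, 343 and 305 CPM in Mix, 323, 375 and 442 CPM in BPA and 429, 340 and 346 CPM in vehicle testes, with full overlap.

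**Figure D4:**
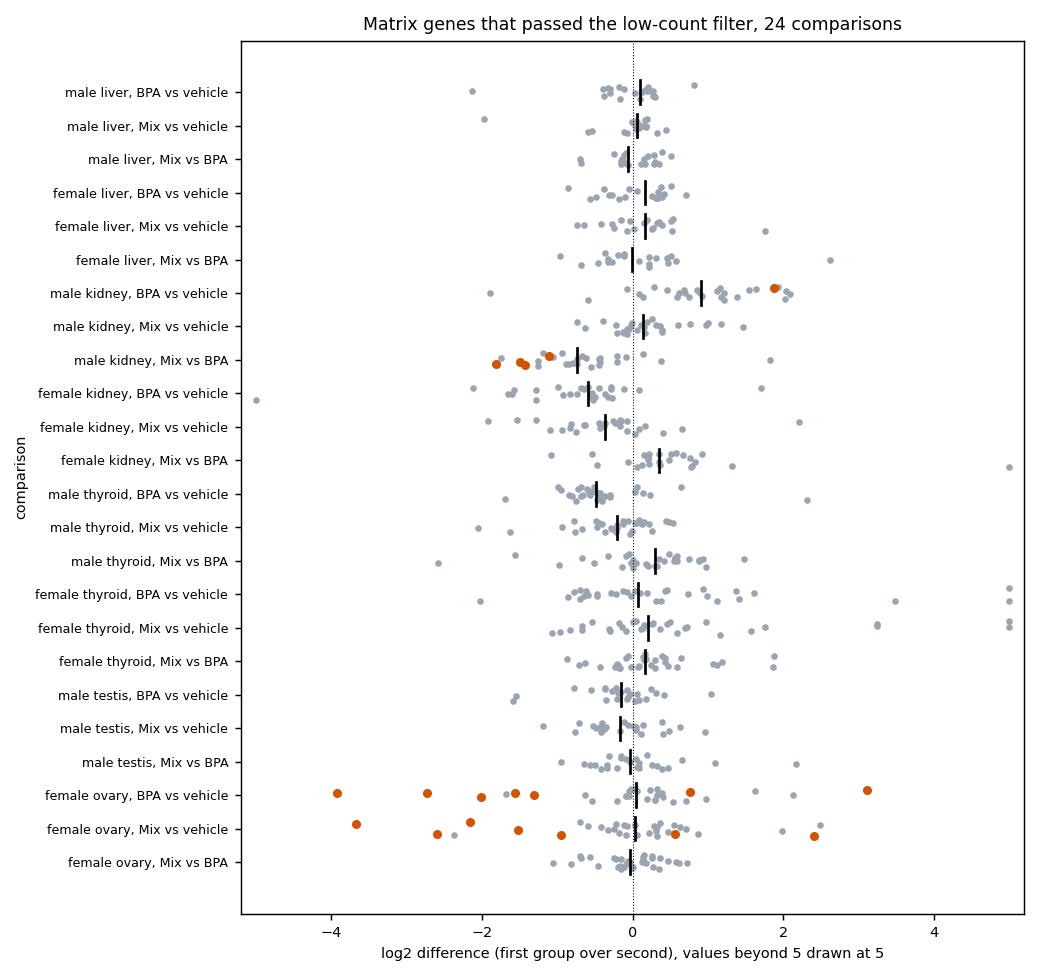
Log2 differences (horizontal axis, first-named group over second) of the matrix genes that passed the low-count filter in each of 24 comparisons (vertical axis); orange points passed an adjusted p of 0.05, grey points did not, black bars are medians over the members, and values beyond 5 are drawn at 5. The medians stand at 0.90 for male kidney and -0.59 for female kidney in BPA against vehicle, and near 0 for ovary, where 7 members pass in each comparison with vehicle.

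The summed level of the 42 genes, in CPM outside ribosomal RNA rows, was set beside the ribosomal RNA share of each library. In male kidney it was 3679, 2417 and 3306 in Mix, 5105, 4331 and 4866 in BPA and 2526, 2910 and 3278 in vehicle rats, and every BPA kidney was above every other. In female kidney it was 2720, 3284 and 3383 in Mix, 2736 and 2242 in BPA and 3985 and 4352 in vehicle rats, and both vehicle kidneys were above the rest. Male thyroids ran from 5468 to 7977 in Mix, 3580 to 6398 in BPA and 6736 to 8505 in vehicle rats, with all BPA thyroids below all vehicle thyroids; the lowest, 3580, was BPA replicate 1, and the other 2 were at 5545 and 6398. Female thyroids reached 4946 to 5937 in Mix, the group with the most ribosomal RNA, 4103 to 4440 in BPA and 4084 to 4675 in vehicle rats. In the ovary the sums ran from 9970 to 11022 in Mix, 10208 to 11588 in BPA and 9948 to 10428 in vehicle rats, and in liver and testis the 3 groups overlapped as well.

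**Figure D5:**
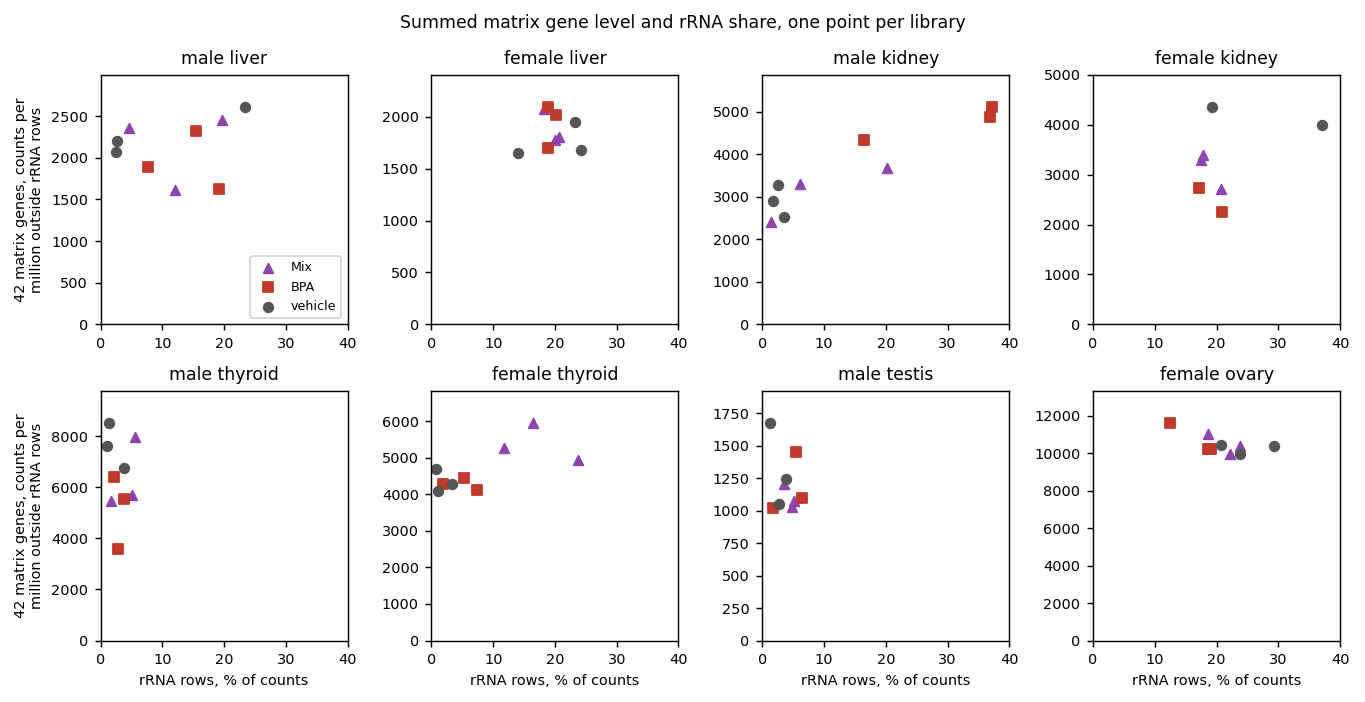
Summed level of the 42 matrix genes (vertical axis, CPM outside ribosomal RNA rows) against the share of counts on ribosomal RNA rows (horizontal axis, percent), one point per library, one panel per organ and sex, for Mix, BPA and vehicle. In male kidney the 3 BPA libraries have both the highest sums and, at 16.4 to 37.2%, shares above all vehicle libraries; in ovary the sums lie between 9948 and 11588 over shares from 12.4 to 29.4%.

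Other matrix genes were read from lists of 81 symbols for collagen processing, basement membrane, elastic fibre, proteoglycans, proteases and their inhibitors, and the TGF-beta axis, of which 72 had a row. In male kidney, Mix against BPA gave 1 higher and 3 lower of 59 tested, where 2.57% of all genes were higher and 0.355% lower, and the other 2 comparisons gave 0. Fbln5, an elastic fibre protein, averaged 69.7 ± 7.28 CPM in Mix and 148 ± 23.3 CPM in BPA kidneys. Ogn, a small proteoglycan, averaged 70.5 ± 15.8 CPM in Mix and 137 ± 16.5 CPM in BPA kidneys (SD, n = 3 each). Both were lower in Mix (-1.08 ± 0.20 and -0.96 ± 0.19, edgeR adjusted p = 0.0193 and 0.021). Mmp11 went the other way, with 24.5 ± 1.18 CPM in Mix and 9.996 ± 1.26 CPM in BPA kidneys (1.29 ± 0.23, edgeR adjusted p = 0.0137). In ovary 8 of 63 rose and 0 fell in BPA against vehicle, where 2.91% of all genes rose and 3.88% fell. In Mix against vehicle 5 rose and 4 fell, where 4.13% of all genes rose and 4.99% fell, so that the share that fell is near that of all genes. Tgfb2, a growth factor that stimulates matrix synthesis, averaged 26.8 ± 5.69 CPM in Mix, 50.2 ± 16.7 CPM in BPA and 8.95 ± 3.41 CPM in vehicle ovaries (1.59 ± 0.31 and 2.49 ± 0.32 from vehicle, edgeR adjusted p = 0.0109 and 0.0014). Omd, the osteomodulin gene, a small proteoglycan, averaged 51.7 ± 15.0 CPM in Mix, 82.1 ± 18.8 CPM in BPA and 23.3 ± 4.27 CPM in vehicle ovaries. It rose in both (1.149 ± 0.24 and 1.81 ± 0.24, edgeR adjusted p = 0.0153 and 0.00182). Lamb2, a laminin chain, rose in BPA ovaries (1.24 ± 0.18, edgeR adjusted p = 0.00206). Lamc1, another laminin chain, rose in both (0.70 ± 0.15 in Mix and 0.65 ± 0.15 in BPA, edgeR adjusted p = 0.0148 and 0.0216). In the other organs 0 of these genes passed in any comparison by edgeR.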

How the data were processed

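RNA of 70 organ samples was extracted with TRIzol and read as 3′-end libraries, per the labels' protocols. The authors deposited raw counts per gene as whole numbers, 1 table for all libraries, with no normalization; FastQC, Bowtie2, bedtools, edgeR and build rn6 are named in the submitters' processing notes, without versions. Strand use, treatment of multi-mapping reads and the annotation are not given in the sources used here, so genes that overlap others, such as Timp1 and Timp3, are uncertain.

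The 42 matrix genes, the other gene lists and the tests were chosen with earlier results of these data known. Each organ and sex was fitted on its own with edgeR 4.0.16 (limma 3.58.1, R 4.3.3): low counts filtered by treatment with filterByExpr, TMM scaling, quasi-likelihood test, Benjamini-Hochberg adjustment over all genes tested, threshold 0.05. Differences between the sexes came from a joint fit of an organ with an interaction term. Intervals are at 95%. Symbols in several rows (316 rows) were kept apart; no member had more than 1 row. The ribosomal RNA share is the share of counts on 8 rows of 5 symbols. Total counts ran from 4803807 to 10929957 per library. No pair of libraries of a group agreed within sampling noise. The fit was tested on simulated data before use.

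The genes named were all members past the threshold, otherwise the 2 with the smallest p per comparison, the levels of Col1a1, Col1a2, Col3a1, Col4a1, Dcn, Fn1, Sparc and Timp1, the 3 members with the most counts per organ, and up to 3 other matrix genes per comparison; further genes were named after their values were seen. Alternatives were DESeq2 1.42.0, RLE size factors, no low-count filter, the replicate number as a block, the ribosomal RNA share as a covariate, removal of the ribosomal RNA rows, and leaving out each library. Promoter sequences are RefSeq's, build GRCr8. A result on 1 other matrix gene is not reported here.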

Additional observations from a re-analysis of the deposited data

Results flagged for a closer look

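For 11 matrix genes the log2 difference of BPA against vehicle differed between male and female kidney by the interaction test (edgeR adjusted p from 0.0155 to 0.0406), and each is higher in males. The male minus female difference was 1.97 in Col1a2, 2.13 in Col1a1 and 1.82 in Col3a1, the major fibrillar chains, and 2.21 in Col5a2. It was 3.69 in Col4a3 and 4.14 in Col4a4 of the basement membrane. It was 2.37 in Dcn, 2.78 in Fn1, 1.84 in Mmp2 and 1.51 in Timp2. In Tnc it was 8.77, a value fitted against 2 female BPA libraries at 0 counts and so no measure of size; the counts in male kidney were 4, 0 and 5 in Mix, 7, 10 and 17 in BPA and 3, 7 and 6 in vehicle. The share of ribosomal RNA was 37.2, 16.4 and 36.9% in BPA and 3.50, 1.71 and 2.53% in vehicle kidneys of males, and 17.2 and 20.9% in BPA and 37.1 and 19.2% in vehicle kidneys of females. With this share as a covariate 0 of the 11 passed.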

How the results depend on the processing

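Counts of matrix genes called are given per setting, without the share of all genes called in the same setting. They therefore do not show whether matrix genes changed more often than other genes there. With DESeq2 they were 12 in male kidney BPA against vehicle, 1 in Mix against vehicle and 7 in Mix against BPA; 3 and 2 in female kidney BPA and Mix against vehicle; 2 and 5 in female thyroid BPA and Mix against vehicle; and 1 in ovary Mix against BPA. Without the low-count filter they were 5 in male kidney BPA against vehicle, and 4 and 2 in female kidney BPA and Mix against vehicle. With the ribosomal RNA share as a covariate they were 0 and 2 in male kidney BPA against vehicle and Mix against BPA, 4 in female kidney BPA against vehicle, and 0 for the kidney sex difference in BPA, the last added after the data were seen. Same-numbered samples did not deviate together (correlations of their deviations from -0.386 to 0.231), so the numbers were not taken to pair rats; with the replicate block the counts were 5 in male kidney BPA against vehicle and 7 for the kidney sex difference in BPA, and elsewhere within 1.5 times the count without it. RLE size factors and removal of ribosomal RNA rows changed no count by more than that. The cause of these changes was not tested.

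Over fits that left out 1 library, the counts ran from 0 to 13 in male kidney BPA against vehicle, 1 to 12 in male kidney Mix against BPA, 0 to 3 and 0 to 1 in female kidney BPA and Mix against vehicle, 0 to 6 and 0 to 7 in female thyroid BPA and Mix against vehicle, 5 to 7 and 3 to 9 in ovary BPA and Mix against vehicle, 0 to 12 for the kidney sex difference in BPA, and 0 to 4 and 0 to 2 for the thyroid sex difference in BPA and Mix. In the kidney sex difference, 0 were left without male vehicle replicate 1 or female BPA replicate 2, 1 without female BPA replicate 1, 3 without female vehicle replicate 2, 5 without male BPA replicate 1, 6 without male vehicle replicate 2 or 3, and 7 without male BPA replicate 3. DESeq2 was not run for sex differences. No estimate named in the report changed sign after it had passed the test.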
